A study of Mus musculus with 9 samples.

Results

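Wnt signalling in the juvenile mouse ovary was described by 9 genes of its core: the ligands Wnt4 and Wnt5a, the agonist Rspo1, the receptor Fzd1, the ubiquitin ligase Znrf3, the secreted antagonist Sfrp4, the transducer Ctnnb1, the feedback scaffold Axin2 and the transcription factor Lef1. They were chosen by gene name with earlier results of these data known, so counts of called members beside all genes are a description. Each matched 1 of the 52025 genes listed in every library. Ovaries of Kunming mice were collected at postnatal day 14 (PD14), PD15 and PD16, with 3 libraries for each day, and the labels give no treatment. The depth of each library, estimated from the deposited values, was 20.4 to 28.7 M fragments. The days bracket the initial formation of the follicular antrum, the fluid-filled cavity of the growing follicle, and the comparisons asked how each gene differed between the days. Expression was given as FPKM, that is sequenced fragments scaled by transcript length and by the depth of the library. In the labels, ovary is the tissue, whereas the source is granulosa cells, the somatic cells that surround the oocyte. All 9 granulosa cell markers passed the filter for expressed genes, but so did all 9 oocyte markers, all 8 theca and interstitial cell markers and all 8 stromal cell markers. The libraries were therefore read as whole ovary. In such bulk RNA, fewer cells of a type and less RNA per cell cannot be told apart.

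Wnt proteins are secreted signals that bind Frizzled receptors on neighbouring cells. In the canonical branch, binding stops the destruction of beta-catenin, which then enters the nucleus and activates genes together with TCF and LEF factors. R-spondins prolong the signal by removing the ligases ZNRF3 and RNF43, which otherwise clear Frizzled receptors from the membrane, and secreted Frizzled-related proteins bind Wnts outside the cell. In mammals, Wnt4 and Rspo1 are known as genes that direct the fetal gonad to an ovarian fate, and Wnt signals go on acting in granulosa cells of growing follicles after birth.

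Of these genes, Rspo1 and Wnt4 fell, and none rose. Rspo1 was already lower at PD15, with a mean of 4.27 ± 0.338 FPKM against 6.90 ± 0.498 at PD14 (SD, n = 3), and was 4.02 ± 0.206 at PD16. Wnt4 was 35.2 ± 3.28 FPKM at PD14 and 34.1 ± 5.18 at PD15, and 21.5 ± 2.15 at PD16. The other members did not pass the test in any comparison. Of the 9 members, 8 averaged more than 1 FPKM on some day and were tested with limma on log2(FPKM + 1), in 1 fit with all 15495 genes that passed this filter. Lef1 was below it.

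Members were called at a Benjamini-Hochberg adjusted p under 0.05 over all genes tested. At PD15 against PD14, 1 of the 8 tested members was called, and it was lower, whereas 0.678% of all genes tested were called in either direction, 0.336% higher and 0.342% lower. At PD16 against PD14, 2 of 8 were called, both lower, against 4.25% of all genes in either direction, 2.36% higher and 1.89% lower. At PD16 against PD15, 1 of 8 was called lower, against 0.729% in either direction, 0.432% higher and 0.297% lower. A difference among any of the 3 days was called for 2 of 8 members by the moderated F test, against 3.03% of all genes. The median log2 change of the 8 members was -0.06 at PD15 and -0.09 at PD16, both against PD14, and 0.02 at PD16 against PD15, beside 0.01 over all genes tested in each comparison. Of all genes tested, 51.9%, 52.2% and 53.1% were above 0 in the same order. The comparisons with PD14 share its 3 libraries, and those with PD16 likewise.

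Libraries were also compared without a test, by whether those of the later day lay entirely below or above those of the earlier day. At PD15 against PD14, 1 of the 8 tested members (Rspo1) was lower in this way and none was higher, beside 10.2% and 10.4% of all genes tested. At PD16 against PD14, 3 of 8 (Wnt4, Rspo1 and Axin2) were lower and none was higher, beside 13.5% and 15% of all genes. At PD16 against PD15, 1 of 8 (Wnt4) was lower and 1 (Fzd1) higher, beside 9.73% and 9.85%.

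**Figure D1:**
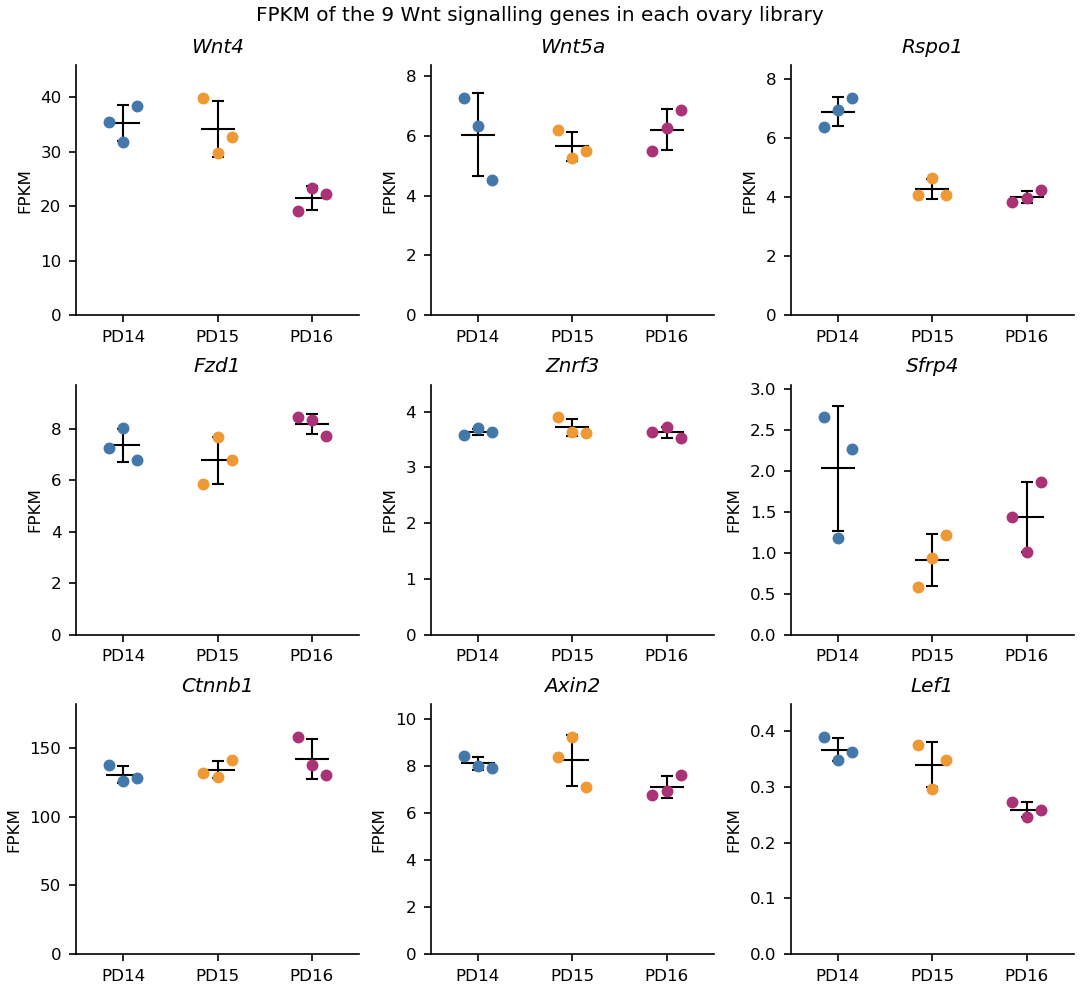
FPKM (vertical axes, linear, from 0) of the 9 genes by day, with 1 point for each library, a horizontal line at the mean of the day and bars of 1 SD (n = 3). The PD15 and PD16 points of Rspo1 lie below all PD14 points, and the PD16 points of Wnt4 and Lef1 lie below the points of both earlier days.

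Expression levels differed widely between the genes. Over the 9 libraries, Ctnnb1 was highest, with a mean of 135 ± 9.82 FPKM (SD, n = 9), followed by Wnt4 with 30.3 ± 7.34. Neither overlapped with the next gene in any library. Axin2 (7.83 ± 0.808 FPKM), Fzd1 (7.43 ± 0.844), Wnt5a (5.97 ± 0.854), Rspo1 (5.06 ± 1.42) and Znrf3 (3.66 ± 0.106) followed, and each overlapped with its neighbour in this order. The order was not the same on each day. By the means of the day, Rspo1 was above Wnt5a at PD14 (6.90 against 6.05 FPKM). At PD16, Fzd1 was above Axin2 (8.17 against 7.11 FPKM). Sfrp4, with 1.46 ± 0.673 FPKM, lay below every library of Znrf3. Lef1 was lowest, with 0.322 ± 0.0542 FPKM, and below every library of Sfrp4. These levels are scaled by transcript length and can be compared between genes, except that the length behind Sfrp4 is not known. The FPKM of Sfrp4 fit 1755 bases and not the annotated 4179, so the size of its gap to Lef1 depends on the length used.

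In 13.5% of all genes tested, all PD16 libraries lay below all PD14 libraries. The same was so in 4 members, Wnt4, Rspo1, Axin2 and Lef1, the last of which was below the filter. Their promoters are shown because these are the members whose libraries separated in this way. Sequences upstream of the transcription start were taken from RefSeq (GRCm38.p6), where 6 of the 9 members matched. They were searched for CTTTG on either strand (read as CAAAG on the other), the core of the sequence that TCF and LEF factors recognise, and a match is in capitals. Each is written 5′ to 3′ on the strand of the gene. Wnt4 lies on the plus strand at chr4:137277385-137277488, where the window was shortened to the 104 bases before the first annotated transcript start. Rspo1 lies on the plus strand at chr4:124986180-124986400, a window shortened to 221 bases that ends ahead of the gene start used here (124986430). Axin2 lies on the plus strand at chr11:108920099-108920348 and Lef1 on the plus strand at chr3:131110047-131110296, both with 250 bases, the latter being 1 of 4 windows listed for the gene.
Wnt4: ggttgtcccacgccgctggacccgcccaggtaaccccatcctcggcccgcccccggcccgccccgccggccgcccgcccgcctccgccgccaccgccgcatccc
Rspo1: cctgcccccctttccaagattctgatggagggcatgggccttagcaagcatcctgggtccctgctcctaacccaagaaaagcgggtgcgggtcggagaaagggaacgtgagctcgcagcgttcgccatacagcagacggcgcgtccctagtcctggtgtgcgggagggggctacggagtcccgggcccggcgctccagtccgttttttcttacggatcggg
Axin2: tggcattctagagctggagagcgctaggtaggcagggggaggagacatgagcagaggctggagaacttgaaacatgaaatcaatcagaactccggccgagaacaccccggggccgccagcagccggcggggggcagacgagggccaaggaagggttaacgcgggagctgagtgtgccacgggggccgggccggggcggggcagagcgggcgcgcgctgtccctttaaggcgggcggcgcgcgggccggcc
Lef1: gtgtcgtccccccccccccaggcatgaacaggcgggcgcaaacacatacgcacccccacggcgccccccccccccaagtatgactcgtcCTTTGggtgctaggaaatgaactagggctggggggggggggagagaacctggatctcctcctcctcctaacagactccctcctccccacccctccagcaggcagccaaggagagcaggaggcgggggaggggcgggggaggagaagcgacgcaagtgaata
The stretch of Wnt4 was 83.7% G or C, against 63.3% for Rspo1, 69.2% for Axin2 and 66.4% for Lef1. Of the 4, Lef1 held 1 match to the core and the others held none. Among the windows used for the 6 members, 1 for each, that of Fzd1 was the only other with a match, with 2. The window of Ctnnb1 was 1 of 2 listed for that gene. Of 32851 windows of 250 bases over all genes, 48.6% held at least 1.

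Wnt4 (ENSMUSG00000036856; GRCm38 chr4:137277489-137299726, plus strand) encodes a ligand that granulosa cells are known to make. It was measured at 35.4, 31.8 and 38.4 FPKM in the PD14 libraries, at 39.9, 29.9 and 32.7 in the PD15 libraries and at 19.1, 23.3 and 22.2 in the PD16 libraries. All PD16 libraries lay below those of PD14 and PD15, which overlapped. The values rest on 1912 to 4260 fragments for each library. On the log2(FPKM + 1) scale Wnt4 changed by -0.68 at PD16 against PD14 (SE 0.116, 95% interval -0.94 to -0.42, adjusted p = 0.0195, limma). Against PD15 it changed by -0.63 (95% interval -0.90 to -0.37, adjusted p = 0.0484), and at PD15 against PD14 by -0.05 (95% interval -0.31 to 0.21, adjusted p = 0.879). The call against PD14 was lost without PD14 replicate 1 (adjusted p = 0.0591), PD14 replicate 3 (0.0763) or PD16 replicate 1 (0.0689), and when genes below the filter were tested too (0.0573). The call against PD15 was lost when any of the 9 libraries was left out (adjusted p 0.0504 to 0.146).

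Wnt5a (ENSMUSG00000021994; chr14:28504750-28527448, plus strand) encodes a ligand best known for signals that do not use beta-catenin. Its levels were 7.28, 6.35 and 4.53 FPKM at PD14, 6.21, 5.25 and 5.51 at PD15 and 5.51, 6.27 and 6.86 at PD16. The days overlapped, and the widest spread was within PD14. The change at PD16 against PD14 was 0.05 on the log2 scale (95% interval -0.26 to 0.36, adjusted p = 0.867, limma).

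Among the 19 Wnt ligand genes, 7 were tested, and Wnt4 and Wnt6 fell at PD16 against PD14, beside 1.89% of all genes tested that were called lower. Wnt6, with a mean over the 9 libraries of 32.3 FPKM near that of Wnt4, which was the higher of the pair at PD15 by its mean, had 42.9, 40.7 and 47.7 FPKM at PD14, 27.3, 35.7 and 29.1 at PD15 and 21.9, 26.1 and 18.99 at PD16. The 3 days did not overlap with each other. Wnt6 changed by -0.95 at PD16 against PD14 (SE 0.127, adjusted p = 0.0103, limma), and its change of -0.51 at PD15 did not pass the test (adjusted p = 0.121). At PD15 against PD14, 0 of the 7 tested ligands were called with limma, and 1 had an unadjusted p under 0.05. Summed over the ligand genes, the level was 92.3 to 103 FPKM at PD14, 79.3 to 85.8 at PD15 and 59.1 to 67.2 at PD16. Wnt4 and Wnt6 together held 78.6% to 83.6% of this sum at PD14, 76.4% to 79.6% at PD15 and 68.7% to 73.4% at PD16. Over the same days the share of Wnt5a was 4.39% to 7.46%, 6.12% to 7.36% and 9.21% to 11.6%, although its own level did not pass the test. Wnt1 was listed at 0 in all 9 libraries.

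**Figure D2:**
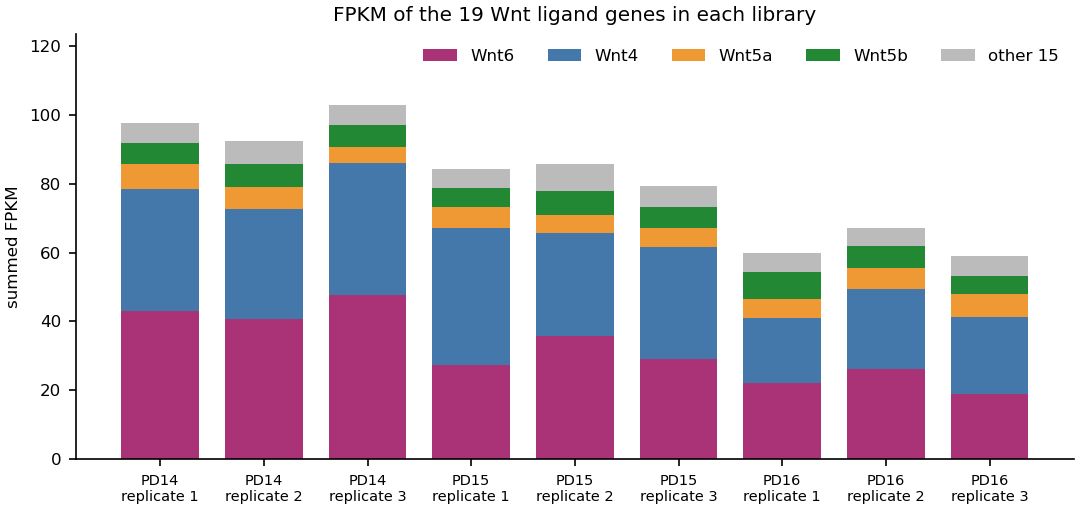
Summed FPKM of the 19 Wnt ligand genes (vertical axis, linear, from 0) in each of the 9 libraries, split into Wnt6, Wnt4, Wnt5a, Wnt5b and the other 15 genes. The sum falls from 92.3 to 103 FPKM in the PD14 libraries to 59.1 to 67.2 in the PD16 libraries, and most of the difference lies in the Wnt6 and Wnt4 segments.

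The release of Wnt ligands needs Wls, which carries them to the cell surface, and Porcn, which adds their lipid. Neither gene passed the test. Wls was 14.9 to 15.4 FPKM at PD16 and 16.6 to 18.0 at PD14, without overlap (log2 change -0.18, adjusted p = 0.0853, limma), and Porcn was 1.32 to 1.99 and 1.67 to 2.27 FPKM (log2 change -0.23, adjusted p = 0.301).

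Rspo1 (ENSMUSG00000028871; chr4:124986430-125009099, plus strand) encodes a secreted amplifier of Wnt signals. It was measured at 6.38, 6.96 and 7.37 FPKM at PD14, at 4.07, 4.66 and 4.08 at PD15 and at 3.83, 3.98 and 4.24 at PD16. The libraries of PD15 and PD16 all lay below those of PD14 and overlapped with each other. Between 175 and 326 fragments were behind each value. Rspo1 changed by -0.58 at PD15 against PD14 (SE 0.0729, 95% interval -0.75 to -0.42, adjusted p = 0.0158, limma) and by -0.65 at PD16 against PD14 (95% interval -0.82 to -0.49, adjusted p = 0.00583). From PD15 to PD16 its change was -0.07 (95% interval -0.23 to 0.09, adjusted p = 0.735). The call at PD15 was lost without PD14 replicate 2 (adjusted p = 0.0504), PD14 replicate 3 (0.0723) or PD15 replicate 1 (0.0893). The call at PD16 held in each of the 21 other fits that were run.

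Rspo1 was not the main R-spondin transcript of these ovaries. Rspo2, which oocytes are known to make, was 20.7 to 23.1 FPKM at PD14, 23.98 to 25.0 at PD15 and 20.7 to 22.7 at PD16, and it passed the test in no comparison (at PD16 against PD14, log2 change -0.01, adjusted p = 0.946, limma). Rspo1 held 21.5% to 25.0% of the summed R-spondin FPKM at PD14, 14.0% to 15.6% at PD15 and 14.9% to 15.6% at PD16. Rspo3 and Rspo4 were below 0.26 FPKM in every library. Of the R-spondin receptors, Lgr4 was 9.85 to 12.03 FPKM and passed no test (at PD16 against PD14, log2 change -0.08, adjusted p = 0.529, limma). Lgr6 was 3.48 to 4.70 FPKM and passed none either (log2 change 0.12, adjusted p = 0.498), and Lgr5 was below the filter.

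Znrf3 (ENSMUSG00000041961; chr11:5276324-5444847, minus strand) encodes the membrane ligase that R-spondins act on, and is itself a known target of canonical Wnt signals. It had 3.58, 3.70 and 3.63 FPKM at PD14, 3.90, 3.64 and 3.62 at PD15 and 3.63, 3.72 and 3.53 at PD16. It was the member with the narrowest spread relative to its mean. Its change at PD16 against PD14 had a 95% interval of -0.13 to 0.13 on the log2 scale (adjusted p = 0.990, limma). Rnf43, its paralogue, was 1.72 to 2.10 FPKM at PD14 and 1.24 to 1.52 at PD16 without overlap, and did not pass the test (log2 change -0.29, adjusted p = 0.102). In the R-spondin branch, 6 of 9 genes were tested and Rspo1 was the only one called. Over all genes tested, 0.678% were called at PD15 and 4.25% at PD16, both against PD14.

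Fzd1 (ENSMUSG00000044674; chr5:4753839-4758035, minus strand) encodes a Frizzled receptor. It had 7.26, 8.04 and 6.77 FPKM at PD14, 5.87, 7.69 and 6.78 at PD15 and 8.44, 8.33 and 7.73 at PD16. The PD16 libraries lay above those of PD15 and overlapped with those of PD14. The change at PD16 against PD15 was 0.24 on the log2 scale (95% interval 0.04 to 0.45), and it did not pass the adjustment over all genes (adjusted p = 0.267, limma). Of the 16 receptors and co-receptors, 13 were tested and none was called with limma in any of the 3 comparisons or by the F test, although 2, 2 and 1 had an unadjusted p under 0.05 at PD15 against PD14, PD16 against PD14 and PD16 against PD15, and 1 in the F test. At PD16 against PD14, 8 were above 0 and 5 below, beside 52.2% of all genes tested above 0. Their most abundant members were the co-receptor Ptk7, with 37.7 to 47.4 FPKM (log2 change -0.14, adjusted p = 0.318), and the receptor Ryk, with 22.6 to 26.2 FPKM (log2 change 0.08, adjusted p = 0.422).

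Sfrp4 (ENSMUSG00000021319; chr13:19623104-19632994, plus strand) encodes a secreted Frizzled-related protein. It was low and variable, with 2.65, 1.18 and 2.26 FPKM at PD14, 0.58, 0.93 and 1.21 at PD15 and 1.43, 1.00 and 1.86 at PD16. Of the PD14 libraries, replicate 2 alone lay within the range of PD15, and PD16 overlapped with both other days. Between 26 and 114 fragments stood behind a value, for which the transcript length was estimated from the FPKM themselves because the annotated exon length did not give whole fragments. The change of -0.65 at PD15 against PD14 (95% interval -1.13 to -0.17) did not pass the adjustment (adjusted p = 0.207, limma). Adding 1 to a level this low shrinks the change, and with 0.1 added and no filter on low values it was -1.06 (adjusted p = 0.373).

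Sfrp1, a related antagonist, fell. Of the 16 in its list it had the highest mean over the 9 libraries (36.8 FPKM), close to Dkk3 (36.6), which was higher than Sfrp1 at PD15 and PD16 by its mean. It had 39.5, 44.4 and 42.5 FPKM at PD14, 34.7, 35.5 and 36.9 at PD15 and 29.2, 34.8 and 33.9 at PD16. The libraries of both later days lay below those of PD14, with a log2 change of -0.36 at PD16 (SE 0.0753, adjusted p = 0.0333, limma), a call that held in 1 of the 9 fits with a library left out, and of -0.23 at PD15 (adjusted p = 0.203). Dkk3 was 34.4 to 41.2 FPKM over all libraries and did not pass the test (log2 change 0.02 at PD16 against PD14, adjusted p = 0.861). Of the 8 antagonists tested, Sfrp1 was the only one called at PD16 against PD14, beside 4.25% of all genes tested, 1.89% lower. A log2 change below 0 was found for 6 of the 8, whereas 52.2% of all genes tested were above 0.

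Ctnnb1 (ENSMUSG00000006932; chr9:120929216-120960507, plus strand) encodes beta-catenin, which joins cadherins at cell contacts besides its role in the nucleus. It had 137, 126 and 128 FPKM at PD14, 132, 129 and 141 at PD15 and 158, 137 and 130 at PD16. PD16 replicate 1 was the highest, and the days overlapped. With 13545 to 21075 fragments for each library, the change at PD16 against PD14 was 0.11 (95% interval -0.08 to 0.30, adjusted p = 0.456, limma). When each library was left out in turn, this change ran from 0.035 to 0.17 and was never called. The transcript says nothing of the protein, whose stability is what canonical Wnt signals control. Ulk4, on the opposite strand, shares 14.6% of the exon bases of Ctnnb1, and fragments of the pair cannot be told apart there if strand was not used.

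Axin2 (ENSMUSG00000000142; chr11:108920349-108950783, plus strand) encodes a scaffold of the complex that destroys beta-catenin, and is a widely used target gene of canonical signals. It had 8.43, 8.03 and 7.91 FPKM at PD14, 8.38, 9.25 and 7.12 at PD15 and 6.76, 6.94 and 7.62 at PD16. All PD16 libraries lay below those of PD14 and overlapped with those of PD15. The change at PD16 against PD14 was -0.17 (95% interval -0.36 to 0.02, adjusted p = 0.268, limma), and did not pass the test.

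Lef1 (ENSMUSG00000027985; chr3:131110471-131224356, plus strand) encodes a DNA-binding partner of beta-catenin and is also a known target. It was low in every library, with 0.390, 0.349 and 0.363 FPKM at PD14, 0.375, 0.296 and 0.349 at PD15 and 0.272, 0.246 and 0.259 at PD16. These rest on 49 to 88 fragments. The PD16 libraries lay below all others. Because Lef1 was under the filter, it was tested only in a fit without one, where its change at PD16 against PD14 was -0.12 on the log2(FPKM + 1) scale (95% interval -0.22 to -0.02, adjusted p = 0.261, limma). With 0.1 added in place of 1, it was -0.38 (adjusted p = 0.499). The exact permutation test of its FPKM, two-sided, gave p = 0.1 for PD16 against PD14, the smallest value that 3 against 3 libraries allow. A gene without overlap between these days always has this value, as Wnt4, Rspo1 and Axin2 did, so it adds nothing to the overlap. Gm43352, on the opposite strand, shares 13.7% of the exon bases of Lef1. The related factor Tcf7 was far higher, with 17.0 to 21.7 FPKM, and did not pass the test (log2 change -0.10, adjusted p = 0.495).

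**Figure D3:**
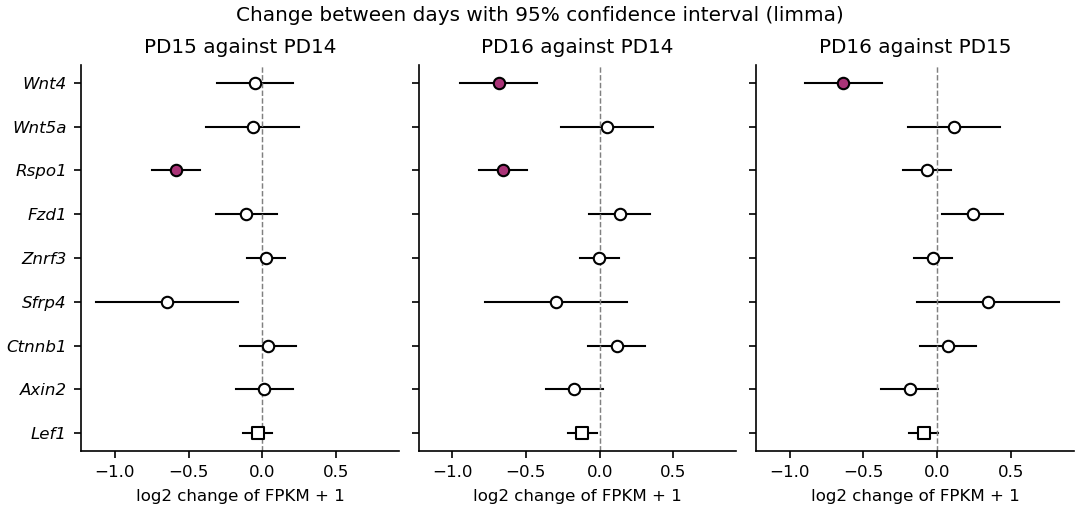
Change of each gene between days on the log2(FPKM + 1) scale (horizontal axes) with its 95% confidence interval from limma. Filled symbols have an adjusted p under 0.05, and the square of Lef1 comes from the fit without a filter. Rspo1 lies at -0.58 and -0.65 in the comparisons with PD14, and Wnt4 at -0.68 and -0.63 in those of PD16.

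The remaining pathway was read from 8 lists of genes by role, which hold 100 genes, 91 of them not among the members. Like the members, the lists were chosen with earlier results known, so their counts are a description. Of the 63 such genes that were tested, none was called at PD15 against PD14 or at PD16 against PD15 with limma, with 9 and 10 at an unadjusted p under 0.05. At PD16 against PD14, 5 of the 63 were called, beside 4.25% of all genes tested: Wnt6 and Sfrp1 fell, and Tnks, Tle1 and Myc rose. The median log2 change of all 71 tested pathway genes, members included, was -0.04 at PD16 against PD14, with 28 above 0 and 43 below, beside a median of 0.01 and 52.2% above 0 over all genes tested. Among the lists it ran from -0.24 for the 8 antagonists to 0.06 for the 13 receptors and co-receptors. In total 7 of these 71 genes were called at PD16 against PD14, 3 higher and 4 lower, beside 2.36% and 1.89% of all genes tested. Of the 5 that are not members, only Wnt6 kept its call in all 21 other fits (adjusted p 0.00668 to 0.0434, limma). The calls of Sfrp1, Tnks, Tle1 and Myc were all lost without the expression filter (adjusted p = 0.0771, 0.0760, 0.0764 and 0.0828) and with only the 2 days compared in the fit (0.0687, 0.0516, 0.0512 and 0.0602). All 4 were also lost without PD14 replicate 1 (adjusted p 0.0619 to 0.0856), PD14 replicate 3 (0.0867 to 0.107), PD16 replicate 1 (0.0853 to 0.103) or PD16 replicate 3 (0.0548 to 0.0678). When 1 library was dropped at a time, the call of Sfrp1 held in 1 of 9 fits, that of Tnks in 3, and those of Tle1 and Myc in 5.

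Tnks encodes tankyrase, which marks AXIN proteins for destruction. At PD16 against PD14 it was the only gene called among 19 tested in the cytoplasmic relay and destruction complex, beside 4.25% of all genes tested. It had 15.0, 15.8 and 13.2 FPKM at PD14 and 19.6, 18.8 and 19.3 at PD16, without overlap (log2 change 0.37, adjusted p = 0.0314, limma). Besides Ctnnb1, the most abundant gene of this list was the kinase gene Csnk1d, with 47.6 to 52.4 FPKM (log2 change 0.05, adjusted p = 0.616).

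Tle1 encodes a Groucho-family corepressor that TCF factors recruit. At PD16 against PD14 it was the only gene called among 12 tested nuclear factors, beside 4.25% of all genes tested. It had 7.69, 9.37 and 8.80 FPKM at PD14, 8.64, 10.02 and 8.46 at PD15 and 12.2, 11.3 and 13.5 at PD16. The PD16 libraries lay above all others (log2 change 0.47 against PD14, adjusted p = 0.0293, limma). The most abundant genes of the list, Cby1 (23.4 to 31.7 FPKM) and Pygo2 (19.1 to 22.8 FPKM), did not pass the test, with log2 changes of -0.02 (adjusted p = 0.912) and 0.02 (adjusted p = 0.863).

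Known target genes of canonical signals did not move as 1 group. Of 14 such genes, 10 were tested and Myc was the only one called, at PD16 against PD14, beside 4.25% of all genes tested. Myc, a regulator of cell growth that many signals induce, had 14.3, 19.1 and 18.1 FPKM at PD14, 22.4, 20.04 and 19.2 at PD15 and 29.1, 23.2 and 33.5 at PD16. It changed by 0.70 at PD16 against PD14 (SE 0.140, adjusted p = 0.0294, limma). Fst, which encodes the activin antagonist follistatin and was the most abundant of the list, had 105 to 125 FPKM at PD14, 102 to 117 at PD15 and 134 to 152 at PD16, with a log2 change of 0.31 against PD14 that did not pass the test (adjusted p = 0.0814). At PD16 against PD14, 4 of the 10 were above 0 and 6 below, Axin2 among the latter, beside 52.2% of all genes tested above 0.

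**Figure D4:**
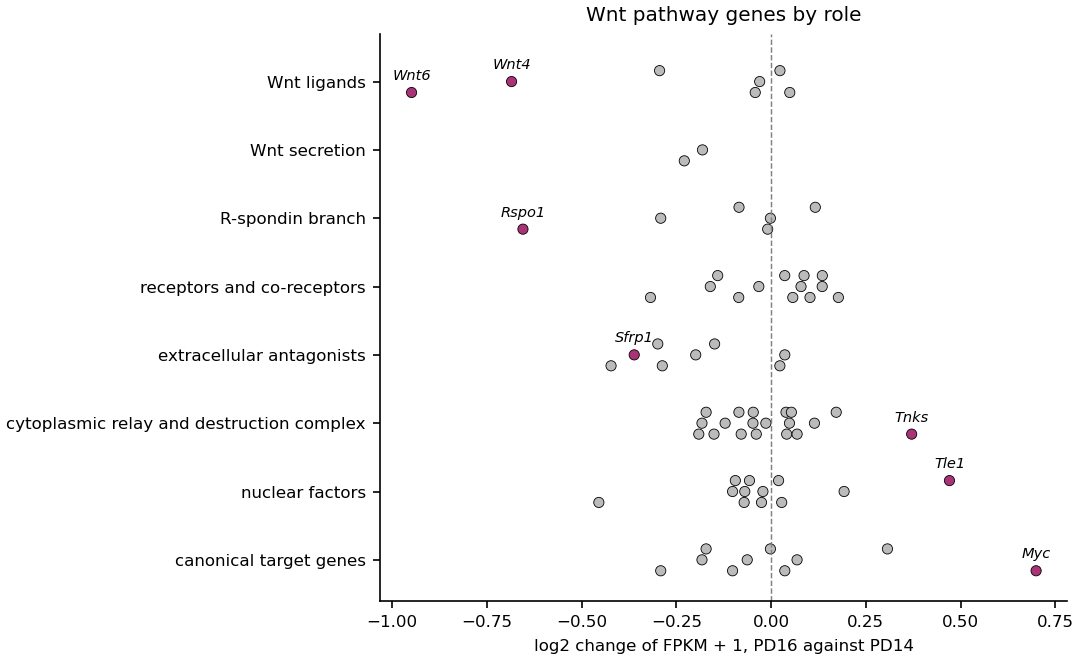
Log2 change of each tested Wnt pathway gene at PD16 against PD14 (horizontal axis, log2(FPKM + 1) scale), in 8 rows by role. Filled and named points have an adjusted p under 0.05 in limma, and a gene in more than 1 list is drawn in each; the 4 named points left of 0 are Wnt6, Wnt4, Rspo1 and Sfrp1, and the 3 right of 0 are Tnks, Tle1 and Myc.

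Some markers of other cell types moved over the same days, beside 0.678% of all genes tested called at PD15 and 4.25% at PD16, both against PD14. The surface epithelium covers the ovary, and adult surface cells are a known site of Wnt and R-spondin expression. The summed level of its 8 markers was 55.6 to 64.8 FPKM at PD14, 50.0 to 57.8 at PD15 and 44.0 to 48.5 at PD16. Of its 6 tested markers, the keratin genes Krt8, Krt18 and Krt19 fell at PD16 against PD14, with log2 changes of -0.48, -0.45 and -0.42 (adjusted p = 0.0222, 0.0121 and 0.0335, limma). The other 3 tested markers, Upk1b, Upk3b and Msln, did not share this direction, with log2 changes of 0.09, 0.05 and 0.11 (adjusted p = 0.772, 0.899 and 0.783) and overlap between the days, so the lower sum lies in the keratin genes, which other epithelia also express. The calls of Krt8, Krt18 and Krt19 held in 6, 8 and 3 of the 9 fits with a library left out. At PD15 against PD14, 0 of the 6 were called, and 3 had an unadjusted p under 0.05. Of the 4 fat markers, Plin1 alone was tested, and it fell at PD15 and PD16 against PD14 (log2 changes -0.60 and -0.50, adjusted p = 0.0377 and 0.0294). The summed level of the fat list was 6.75 to 7.94 FPKM at PD14, 4.28 to 4.60 at PD15 and 4.14 to 5.82 at PD16, with Adipoq and Cidec near 0.

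The blood cell list summed to 112 to 143, 59.0 to 77.6 and 75.6 to 125 FPKM on the 3 days, and in it Hba-a1 fell at PD15 (log2 change -1.35, adjusted p = 0.0381, limma) and Lyz2 rose at PD16 (0.74, adjusted p = 0.0286), both against PD14. Besides Lyz2, the 4 other tested markers of that list, Hba-a1 included, were below 0 at PD16 against PD14, and the median of the list was -0.34. Among granulosa cell markers, Amh rose and Cyp19a1 fell at PD16 against PD14 (log2 changes 0.47 and -0.84, adjusted p = 0.0223 and 0.0316, limma). For Cyp19a1 the study reported the opposite by quantitative RT-PCR, with higher expression at PD15 and PD16. In the libraries, 4 of the 9 granulosa cell markers were above 0 at PD16 against PD14 and 5 below, and 5 had an unadjusted p under 0.05. The list summed to 2876 to 3559 FPKM at PD14, 2694.5 to 3078.9 at PD15 and 2896 to 3385 at PD16. The theca and interstitial list ran from 1623 to 2245, 1196 to 1770 and 1229 to 1637 FPKM, with no call and 2 of 8 markers at an unadjusted p under 0.05 at PD16 against PD14. The oocyte list ran from 1034 to 1287, 1307 to 1389 and 977 to 1029 FPKM, and in it Bmp15 rose at PD16 against PD14 (log2 change 0.39, adjusted p = 0.0331, limma) and Zp2 fell against PD15 (-0.61, adjusted p = 0.0427). Unlike Bmp15, 7 of the 9 oocyte markers were below 0 at PD16 against PD14 (median -0.26), and 6 of the 9, Bmp15 included, had an unadjusted p under 0.05. The endothelium list ran from 56.6 to 59.7, 52.3 to 56.3 and 50.9 to 53.2 FPKM, with no call and 2 of 5 at such a p. In the smooth muscle list, Cnn1 rose at PD16 against PD14 (log2 change 0.61, adjusted p = 0.0348, limma), and all 5 markers were above 0. The stromal cell list ran from 619 to 709, 545 to 620 and 625 to 640 FPKM, with no call in any comparison. Of its 8 markers, 0 had an unadjusted p under 0.05 at PD16 against PD14, and 2 at PD15 against PD14. The 4 oviduct markers were all below the filter. The calls of these markers were in part lost under other settings. Those of Plin1 on both days, Hba-a1, Lyz2, Amh, Cyp19a1, Bmp15, Zp2 and Cnn1 were all lost without the expression filter (adjusted p 0.0623 to 0.125, limma), as were those of Krt8 and Krt19 (0.0571 and 0.0834). When 1 library was dropped at a time, the call held in 6 of 9 fits for Amh, in 4 for Cyp19a1, Lyz2 and Plin1 at PD16, in 3 for Bmp15 and Cnn1, in 2 for Hba-a1 and Plin1 at PD15, and in 1 for Zp2. The part of these markers in the changes of Rspo1, Wnt4 and Wnt6 was not tested.

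**Figure D5:**
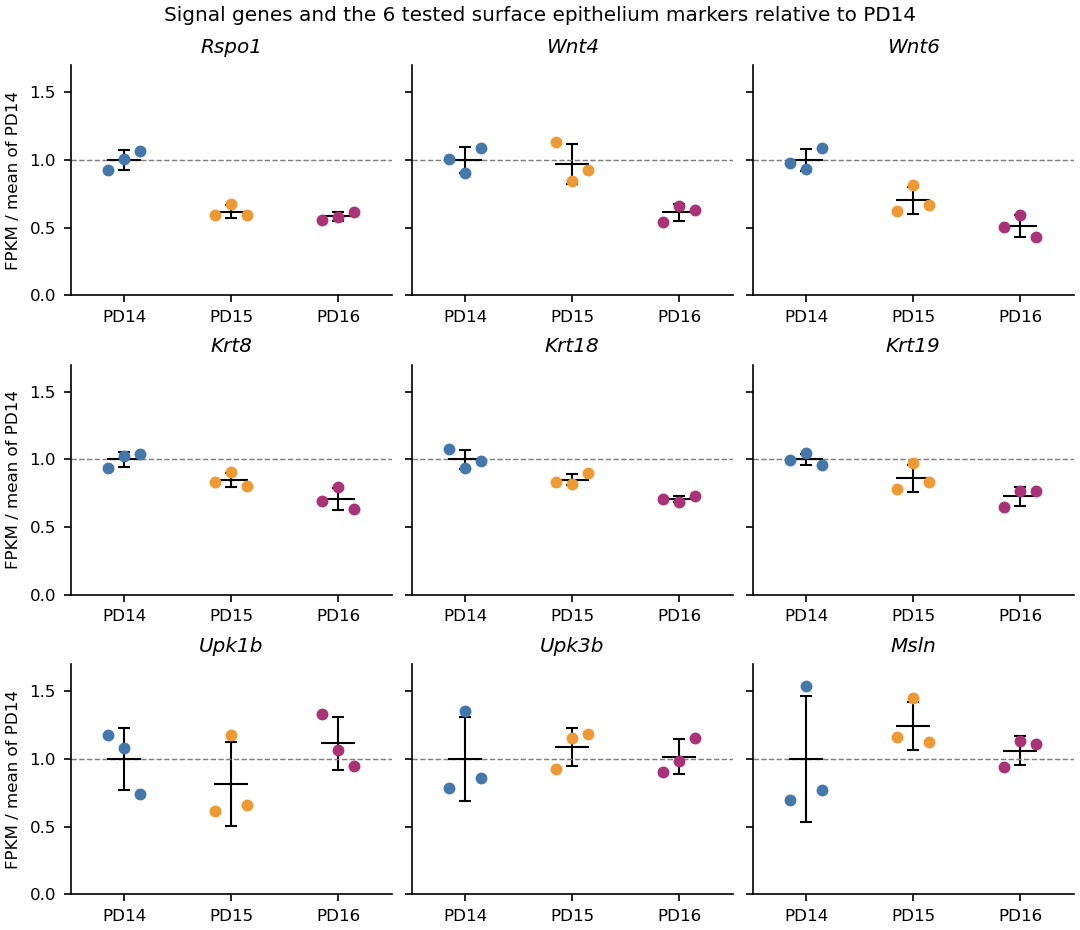
FPKM of Rspo1, Wnt4, Wnt6 and the 6 tested surface epithelium markers divided by the mean of the PD14 libraries (vertical axes, linear, from 0), with 1 point for each library, the mean of each day and bars of 1 SD (n = 3). Rspo1, Wnt4, Wnt6 and the keratin genes lie below 1 in every PD16 library, whereas Upk1b, Upk3b and Msln lie on both sides of 1 there.

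Rspo1 had the smallest p of the members in the F test (adjusted p = 0.00809, limma), and genes with the most similar pattern were sought. Across the 9 libraries, the log2(FPKM + 1) of Rasgrp4 (Pearson r = 0.977), Tbcel (0.970) and Ppp1r14a (0.968) followed that of Rspo1 most closely among the tested protein-coding genes. Both genes of a pair were read from the same libraries, with the same days and depths, and r is given as a description. Ppp1r14a, which encodes an inhibitor of myosin phosphatase, was 17.0 ± 1.23 FPKM at PD14, 11.7 ± 0.259 at PD15 and 11.6 ± 1.25 at PD16 (SD, n = 3). Rasgrp4 was 1.21 ± 0.0947, 0.717 ± 0.146 and 0.601 ± 0.0652 FPKM, and Tbcel 10.4 ± 0.0767, 8.84 ± 0.249 and 8.92 ± 0.325 FPKM. The r of Rspo1 with the 7 other members that passed the filter, which leaves out Lef1, ran from -0.54 for Ctnnb1 to 0.56 for Sfrp4 and was 0.56 for Wnt4.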

How the data were processed

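Libraries were prepared with the NEBNext Ultra kit, 3 for each day, and sequenced on an Illumina HiSeq platform. The study describes the 3 as independent ovaries, and the labels do not name the animals, so p-values measure the spread between these libraries. The authors deposited FPKM for each library, which they scaled by transcript length and depth. The submitters' processing notes name HISAT2 2.0.5 and mm10, and the counting program and annotation are not given in the sources used here. Coordinates and exon lengths were from GENCODE M21 (GRCm38). From the step of the low FPKM, 20.4 to 28.7 M fragments per library were derived.

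FPKM were used without further scaling. Genes that averaged more than 1 FPKM on some day were tested as log2(FPKM + 1) in limma 3.58.1 (R 4.3.3) with an intensity trend, with 9 libraries in 1 fit and Benjamini-Hochberg adjustment. The method was tested on simulated data. Single values were compared with exact permutation tests (SciPy 1.17.1).

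The members and the lists were chosen with earlier results of these data known. Genes named were the members, pathway genes with an adjusted p under 0.05, the 2 most abundant genes of each list, the 3 genes most like Rspo1 and markers that moved with a day. Other genes (Rspo3, Rspo4, Lgr5, Lgr6, Rnf43, Tcf7, Wnt1, Upk1b, Upk3b, Msln, Adipoq, Cidec, Ulk4 and Gm43352) were added after their values were seen. Alternatives were other pseudocounts, filters and scalings, other settings of limma, a block for the replicate number, and each library left out in turn. Testing without a filter with a pseudocount of 0.1 was chosen after seeing the data.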

Additional observations from a re-analysis of the deposited data

How the results depend on the processing

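Rspo1 and Wnt4 kept their direction in every fit run of the comparisons in which they were called. Rspo1 at PD16 against PD14 had an adjusted p of 0.00536 to 0.0305 over all alternatives (limma). When 1 library was left out in turn, members called numbered 0 to 1 at PD15 against PD14, 1 to 2 at PD16 against PD14, 0 at PD16 against PD15 and 1 to 2 by the F test. Pathway genes called numbered 0 to 1, 2 to 7, 0 and 1 to 3 in the same order. For PD16 against PD15, Wnt4 was the only member called, and its call held in 7 of 12 alternatives and in 0 of the 9 fits with a library left out.

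Without an expression filter, 1 member and 2 pathway genes were called at PD16 against PD14, 0 and 0 at PD16 against PD15, and 1 and 1 by the F test. With a pseudocount of 0.1 as well, pathway genes called were 3 at PD16 against PD14, and 0 members and 0 pathway genes at PD16 against PD15, with 1 member and 2 pathway genes by the F test. With only the 2 days compared in the fit, 3 pathway genes were called at PD16 against PD14, and 0 members and 0 pathway genes at PD16 against PD15. Limma without a trend gave 0 members and 0 pathway genes there, while quantile normalization and sample weights each gave 2 pathway genes, Wnt4 and Fst. In these fits the cause was not tested.

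The labels do not say whether the replicate numbers pair the libraries. Deviations from the day means correlated between -0.214 and 0.159 for same-numbered libraries and between -0.196 and 0.211 for the others. These ranges showed no pairing, but they cannot exclude one. With the replicate number as a block, 4 pathway genes were called at PD16 against PD14 (Rspo1, Wnt4, Wnt6 and Sfrp1), 0 members and 0 pathway genes at PD16 against PD15, and 1 member and 2 pathway genes by the F test, and the adjusted p of Wnt4 at PD16 against PD14 was 0.0494. The marker calls of Hba-a1, Plin1 at PD15, Bmp15, Cnn1 and Cyp19a1 were lost with it (adjusted p 0.0602 to 0.0923).

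Changes near 0 that were not called changed sign in 14 cases, counting each gene, comparison and fit apart. With each library left out in turn, Wnt4 ran from -0.16 to 0.039, Wnt5a from -0.23 to 0.061, Axin2 from -0.064 to 0.10 and Znrf3 from -0.0023 to 0.040 at PD15 against PD14. At PD16 against PD14, Wnt5a ran from -0.12 to 0.18 and Znrf3 from -0.016 to 0.014, and at PD16 against PD15, Ctnnb1 ran from -0.0045 to 0.13 and Znrf3 from -0.042 to 0.00065. Znrf3 at PD16 against PD14 was 0.0070 under quantile normalization and 0.010 with sample weights. Depth limits Lef1 and Sfrp4 most, with 49 to 88 and 26 to 114 fragments in a library.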
